A study of Mus musculus with 20 samples.

Results

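Plac8 (placenta associated 8, also called onzin) was followed as 1 gene of the 12701 in the count table of the mouse proximal colon (PC). It was picked because its counts differed between diets in these same libraries. Its levels, its differences between diets and the genes that vary with it are therefore given as a description, with no test. Only its relations to sequencing depth and to a score of smooth muscle markers were tested, by permutation. The counts came from 20 C57BL/6 mice, 1 library per mouse, with 5 mice on each of 4 diets. Mice, 3 weeks old at the start by the series description, were kept for 6 weeks on the TWD (Total Western Diet, whose nutrients follow average American intake) and then ate for 3 more weeks either the TWD alone (0% RPS) or the TWD with 2, 5 or 10% raw (resistant) potato starch (RPS). All 4 groups therefore shared the TWD, and none ate a low-fat or chow diet. RNA was taken from a segment of whole PC wall, so in these bulk samples a change in the number of cells that express a gene and a change in RNA per cell cannot be told apart.

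Plac8 encodes a small protein rich in cysteine that is found in several kinds of leukocytes and in the intestinal epithelium. Phagocytes of mice without Plac8 kill ingested bacteria poorly, and the protein has been tied to the lipid scramblase Plscr1, to the Akt, Mdm2 and p53 pathway and to the joining of autophagosomes with lysosomes. In the mouse colon it is known as a gene of the epithelial lining, which also secretes antibacterial lectins and oxidants into the lumen.

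In the annotation Plac8 (ENSMUSG00000029322) lies on the minus strand of chromosome 5 at chr5:100701591-100720111 (GRCm39) and is protein-coding. Its canonical transcript has 5 exons and 744 bases. The coding stretch of 336 bases starts in exon 2 and ends in exon 4, and exons 1 and 5 hold no coding bases. The coding stretch from codon 28 to codon 97 is shown because it holds all the cysteines for which the protein is known. It is printed 5′ to 3′, and capitals mark the in-frame cysteine codons.
Plac8 coding stretch: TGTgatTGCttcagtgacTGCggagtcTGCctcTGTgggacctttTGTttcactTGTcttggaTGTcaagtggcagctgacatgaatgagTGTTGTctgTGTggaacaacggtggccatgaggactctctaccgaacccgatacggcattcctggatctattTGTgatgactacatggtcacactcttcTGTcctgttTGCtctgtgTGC
Of its 112 codons, 15 encode cysteine, or 13.4%. The median over the canonical coding sequences of 11705 genes in the table was 1.89%, and 99.9% of those genes had a lower share.

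The 250 bases before the start of the gene, at chr5:100720112-100720361 (GRCm39, minus strand), are shown because Plac8 and the defence genes described below varied together. Capitals mark the 1 match to CCAAT, which begins 54 bases before the start.
Plac8 upstream sequence: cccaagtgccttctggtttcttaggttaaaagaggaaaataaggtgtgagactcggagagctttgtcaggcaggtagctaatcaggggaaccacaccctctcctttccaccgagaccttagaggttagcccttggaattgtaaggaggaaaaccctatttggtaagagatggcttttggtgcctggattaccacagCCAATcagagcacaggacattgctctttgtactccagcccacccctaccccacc
The sequence had 50% GC. On either strand the letters TATAAA of the TATA box were not found, nor were those of the Sp factors' motif, GGGCGG, or of the STAT factors' motif, TTCNNNGAA. Over the upstream windows of 11761 genes in the table, the share with a match was 35.6% for CCAAT, 7.48% for TATAAA, 49.5% for GGGCGG and 6.37% for TTCNNNGAA. Among the 10 genes whose counts followed Plac8 most closely, CCAAT was present in Myl7 and Fam3b, the STAT motif in Reg3b and Urah, the Sp motif in Tpm3, Snrpd1, Urah and Fam3b, and the TATA box in Reg3g. Plac8 has 17 annotated transcripts. Over 50-base windows, the read length here, none of the 695 windows of the canonical transcript occurred in a transcript of another gene, while 2.64% of the 4885 windows over all its transcripts did. The lncRNA genes Gm71829 and Gm71819 overlap Plac8 on the opposite strand. Neither is among the genes with counts here, and whether strand was used in counting is not given in the sources used here, so reads from them could stand in the Plac8 count.

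Total counts ranged from 20581013 to 35083751 per library, and Plac8 took between 0.0474% and 0.0987% of them. With 11879 to 31050 Plac8 reads in each library, the counting error was at most 0.918% of the value, far below the differences between mice. Its mean normalised read count (counts divided by the DESeq2 size factor) was 19780, which ranked 106 of 12701 genes. Per kilobase of canonical transcript it ranked 40 of 12682. Epithelial markers were high in every library, as in the surface keratin Krt20 at 22384 to 46890 normalised counts, and the smooth muscle calponin Cnn1 was at 8749 to 29960, so both mucosa and muscle wall were in the samples. The library of 0% RPS replicate 2 stood apart, with the highest Cnn1 of all 20 and the highest Aqp8, 6463 normalised counts against 98.0 to 917 in the other libraries of its diet. Libraries are numbered within each diet.

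Plac8 was lowest without starch and about 1.3 to 1.5 times as high on the starch diets. In mice fed 0% RPS the normalised counts were 16993, 14228, 17704, 13758 and 12316 in replicates 1 to 5, with a mean of 15000 ± 2271 (SD, n = 5). At 2% RPS they were 22608, 22160, 14554, 15672 and 24247, with a mean of 19848 ± 4410 (SD, n = 5). The 2% group was split, since replicates 3 and 4 lay within the range of 0% RPS and the other 3 lay above it.

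At 5% RPS the Plac8 counts were 23659, 27028, 26622, 16360 and 20751, with a mean of 22884 ± 4440 (SD, n = 5). Replicate 4 alone lay within the range of 0% RPS, and replicates 2 and 3 were the highest of all 20 libraries. At 10% RPS the counts were 17506, 19536, 23830, 22188 and 23879, with a mean of 21388 ± 2798 (SD, n = 5). Here replicate 1 lay just under the highest library of 0% RPS. All 5 libraries at 5% RPS, all 5 at 10% RPS and 4 of 5 at 2% RPS were above the mean of 0% RPS, but the ranges of all 4 diets overlapped.

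**Figure D1:**
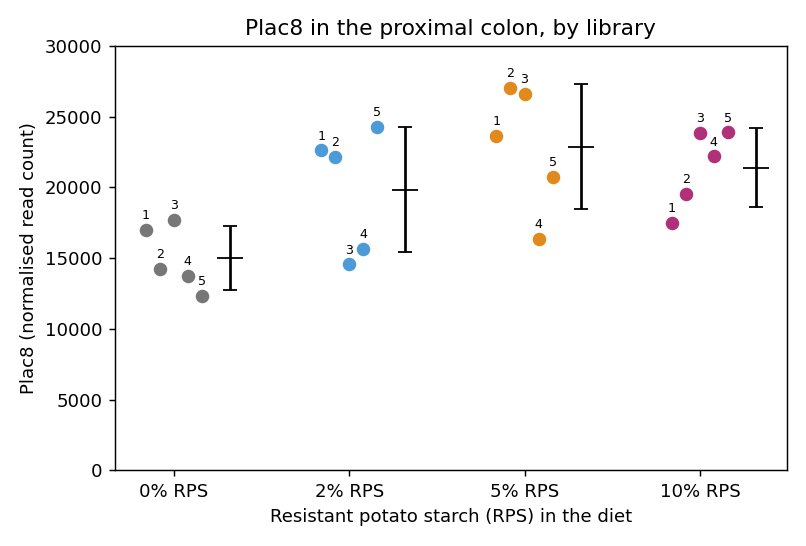
Normalised Plac8 read count in each of the 20 libraries, by the percentage of RPS in the diet, with replicate numbers above the points and the mean ± SD of 5 libraries to the right of each diet. The 0% RPS libraries lie between 12316 and 17704, and 3, 4 and 4 of 5 libraries at 2, 5 and 10% RPS lie above them.

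Against 0% RPS, the log2 difference of Plac8 was 0.40 ± 0.16 (SE) at 2% RPS, 0.61 ± 0.16 at 5% RPS and 0.51 ± 0.16 at 10% RPS, or 1.32-, 1.53- and 1.43-fold on the linear scale. The levels did not climb with each step of starch, and their order was 0%, 2%, 10% and 5% RPS. Among the starch diets the differences were small. 5% RPS was 0.21 above 2% RPS on the log2 scale, with a 95% interval from -0.10 to 0.51. 10% RPS was 0.11 above 2% RPS, with an interval from -0.20 to 0.42, and the difference of 10% from 5% RPS was -0.10, with an interval from -0.40 to 0.21. All 3 intervals include 0. At 5% RPS the fold was just past 1.5 (0.58 on the log2 scale), and at 10% RPS just short of it. Leaving out 1 library at a time gave 0.32 to 0.50 at 2% RPS, 0.54 to 0.71 at 5% RPS and 0.45 to 0.58 at 10% RPS, so that at 5% RPS the 1.5-fold mark was missed without replicate 2 of 5% RPS. Without 0% RPS replicate 2, the library that stood apart, the values were 0.39, 0.59 and 0.49.

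Plac8 varied between mice on one diet more than most genes did. The pooled SD of log2 normalised counts within diets was 0.27, against a median of 0.15 over 11541 genes with a mean of at least 100, and 85.8% of those genes had a lower SD. Among 297 genes within 2-fold of its level the median was 0.14. Of the variance of Plac8 over the 20 libraries 47.6% lay between diets, against a median gene's 17.8%. Because Plac8 was picked for its difference between diets, a share above the median follows from that choice. No relation of its level to depth was detected over the 20 libraries, with r = 0.05 for the total count (permutation p = 0.821, adjusted 0.821 over 2 relations) and rho = 0.15 (p = 0.531, adjusted 0.531), 0.04 without the 2 libraries farthest from the median depth, and -0.15 within diets. With a score of 7 smooth muscle markers it had r = -0.25 (permutation p = 0.281, adjusted 0.561) and rho = -0.32 (p = 0.167, adjusted 0.334), -0.03 without the 2 farthest libraries and -0.07 within diets. With that score as a covariate the log2 differences of Plac8 were 0.40, 0.59 and 0.50.

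The genes that followed Plac8 most closely over the 20 libraries were a sugar-metabolism enzyme, a tropomyosin and a pair of antibacterial lectins. Likeness was measured as Pearson's r of log2(normalised count + 1) over 11540 genes. These points share libraries and size factors, and the diets pull them together, so r is also given after centring each diet on its own mean (within-diet r). Mpi, the mannose phosphate isomerase that feeds mannose into glycan synthesis, had r = 0.96 and a within-diet r of 0.93. Tpm3, a tropomyosin of the actin cytoskeleton, had r = 0.96 and 0.92. The lectins Reg3g and Reg3b, which epithelial cells secrete against Gram-positive and other bacteria, both had r = 0.93, with 0.88 and 0.87 within diets.

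The range over which these genes moved was very unequal. Mpi was at 2320, 1894, 2311, 1999 and 1887 normalised counts in mice fed 0% RPS and at 2687, 3239, 2903, 2177 and 2643 at 5% RPS. Its lowest library at 5% RPS was replicate 4, as for Plac8, and it lay within the range of 0% RPS. Reg3b was at 2114, 553, 8324, 2261 and 1095 at 0% RPS, at 25600, 21359, 1723, 5714 and 127115 at 2% RPS, and at 113614, 114161, 120543, 8941 and 19347 at 5% RPS. At 10% RPS it was at 25929, 33461, 47096, 71968 and 60937, with no library in the range of 0% RPS.

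The split of the 2% RPS group was the same in Plac8 and Reg3b, with replicates 3 and 4 lowest and replicate 5 highest in both. At 5% RPS replicates 4 and 5 were the lowest in both genes. Reg3b thus spanned more than 2 orders of magnitude, from 553 to 127115, where Plac8 spanned 12316 to 27028. Tpm3 covered a narrower range still, from 3355 to 4529.

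**Figure D2:**
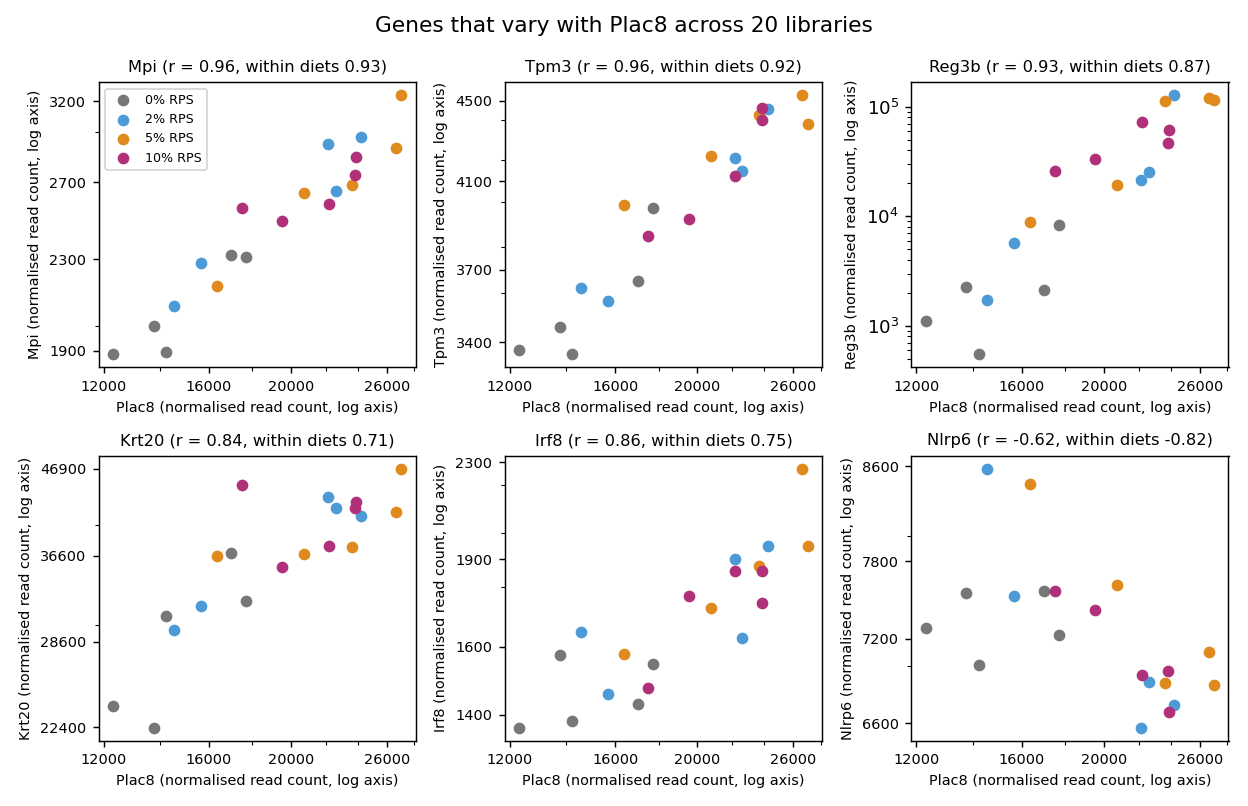
Normalised counts of 6 genes (vertical, log axes) against those of Plac8 (horizontal, log axis) in the 20 libraries, coloured by diet. Mpi (r = 0.96), Tpm3 (r = 0.96), Reg3b (r = 0.93), Krt20 (r = 0.84) and Irf8 (r = 0.86) were higher where Plac8 was higher, within diets too, and Nlrp6 (r = -0.62) was lower.

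The rest of the 10 closest genes had r between 0.90 and 0.92. They were Snrpd1, a core protein of the spliceosome, Prss27, a serine protease, Myl7, a myosin light chain best known from the cardiac atria, Dbnl, an adaptor that binds actin, Urah, an enzyme of urate breakdown, and Fam3b, a secreted cytokine-like protein. Their within-diet r ran from 0.82 for Fam3b to 0.88 for Snrpd1 and Dbnl. Prss27 was the lowest of them in level, at 34.4 to 105 normalised counts at 0% RPS and 75.0 to 372 at 5% RPS, with replicate 4 again the lowest at 5% RPS.

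In all, 117 genes had r of at least 0.8 and 49 had r of -0.8 or lower, around a median of -0.01 and with 90% of genes between -0.60 and 0.67. Fut2 was the last gene inside that limit (r = 0.801) and Rnh1 the first outside it (r = 0.79988). Within diets, 49 genes had r of at least 0.8, and 38 of the 117 were among them. The lowest within-diet r of the 117 was 0.62. Without 0% RPS replicate 5, where Plac8 was lowest of all, 76 genes passed the limit, and without 0% RPS replicate 2, 162 did. Within diets alone, 5 of the 10 highest genes were those named above, and among the new ones were Polr2h (0.92), a subunit shared by the RNA polymerases, Anp32b (0.90), a histone chaperone, Nsf (0.88), the ATPase that resets the machinery of vesicle fusion, Clca4b (0.88), an epithelial protein of the calcium-activated chloride channel regulator family, and Snrnp40 (0.88), of the U5 spliceosomal particle.

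Genes that ran against Plac8 were led by Fam193b (r = -0.90, -0.87 within diets) and Mta1 (-0.89, -0.82), a subunit of the NuRD chromatin complex. Fam193b was at 2786, 2892, 2632, 3206 and 3023 normalised counts at 0% RPS and at 2412, 2348, 2510, 2804 and 2607 at 5% RPS, with replicate 4 the highest of the latter. Tmt1a, a thiol methyltransferase (r = -0.88), Sesn1, a stress-induced inhibitor of mTORC1 (r = -0.88), and Zfp608, a zinc finger protein (r = -0.87), followed. Sesn1 was at 1015 to 1376 normalised counts at 0% RPS and at 732 to 911 at 5% RPS, so those diets did not overlap. Its log2 difference of -0.46 ± 0.10 (DESeq2 adjusted p = 0.00275) was smaller than the 1.5-fold limit, as was that of Tmt1a (-0.46 ± 0.11, DESeq2 adjusted p = 0.00399). With edgeR their adjusted p was 0.0645 in both cases.

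Many antibacterial genes varied with Plac8. The list included genes that the study had picked from these samples, so it is not independent evidence of a direction. Of its 26 genes, 20 had counts in the table. Their median r with Plac8 was 0.55 (0.38 within diets), and 12 of the 20 had r of at least 0.5, against 13.9% of all 11540 genes. Lectins and oxidant enzymes made up most of the upper end. Besides Reg3b and Reg3g it held the lectin Reg3a (r = 0.76) and Duox2 (0.77), which makes hydrogen peroxide at the cell surface. Lactoperoxidase, Lpo (0.72), which uses that peroxide, and the Duox2 maturation factor Duoxa2 (0.71) were there too. So was Fut2 (0.80), an enzyme that adds fucose to epithelial glycans. At the other end stood Nlrp6, an inflammasome sensor of the epithelium, with r = -0.62 and -0.82 within diets. Nlrp6 was not called at any starch level, with log2 differences of 0.01 ± 0.07 at 5% RPS and -0.04 ± 0.07 at 10% RPS, and its 2 highest libraries, at 8575 and 8441 normalised counts, were replicate 3 at 2% RPS and replicate 4 at 5% RPS, the lowest of their diets in Plac8.

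**Figure D3:**
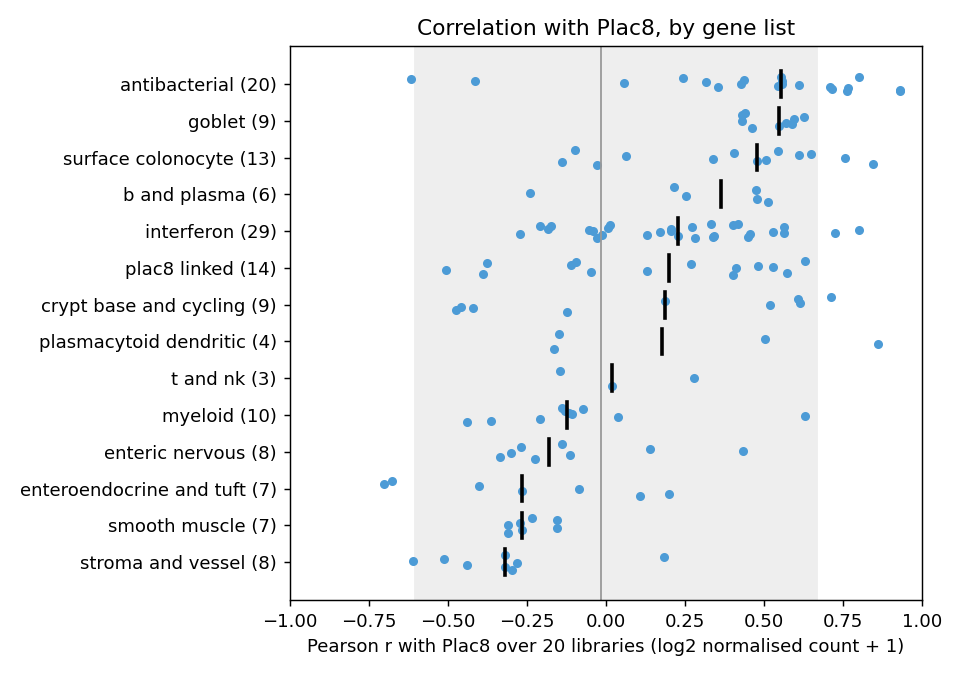
Pearson r with Plac8 over 20 libraries for the measured genes of 14 lists (1 point per gene, number of genes in parentheses), with the median of each list as a black bar. The grey band holds 90% of all genes (-0.60 to 0.67), and the antibacterial (0.55) and goblet (0.55) lists have the highest medians.

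A gene was called changed when its DESeq2 adjusted p did not exceed 0.05 and it differed by at least 1.5-fold. At 5% against 0% RPS, 8 of the 20 antibacterial genes were called higher and none lower. Of all 12561 genes tested, 0.438% were called at 5% RPS, 0.334% higher and 0.103% lower. They were Reg3a, Reg3b, Reg3g, Lpo, Duox2, Duoxa2, Lypd8l and Fut2. At 10% RPS these 8 and Casp4, which senses bacterial lipopolysaccharide in the cytosol, were called higher, where 0.9% of all genes were called, 0.525% higher and 0.374% lower. No antibacterial gene was called at 2% RPS with either tool, where 0.0239% of genes were with DESeq2. At an unadjusted DESeq2 p under 0.05 there were 7 of the 20 at 2% RPS, all of them higher. How many of all genes passed that unadjusted limit is not given here, so the 7 show nothing particular to the list. The call depended on the tool, since edgeR called 1 antibacterial gene at 5% RPS (Lpo, against 0.0566% of genes) and 4 at 10% RPS (Lpo, Duox2, Lypd8l and Casp4, against 0.323%). At 5% RPS the count fell to 4 or 5 when 1 of replicates 1, 4 and 5 at 0% RPS or of replicates 1, 2 and 3 at 5% RPS was left out. Shares of all genes called in those fits are not given here.

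Reg3b rose by 4.71 ± 0.90 on the log2 scale at 5% RPS (DESeq2 adjusted p = 0.000264) and by 4.06 ± 0.90 at 10% RPS (DESeq2 adjusted p = 0.00137), but neither call held with edgeR (adjusted p = 0.0645 and 0.0557). Lpo varied less between mice than the Reg3 lectins did. Its normalised counts were 612, 469, 561, 565 and 623 at 0% RPS and 1245, 1267, 1212, 919 and 810 at 5% RPS, which did not overlap. It rose by 0.95 ± 0.16 at 5% RPS (DESeq2 adjusted p = 1.27e-05, edgeR adjusted p = 0.0335) and by 1.21 ± 0.16 at 10% RPS (DESeq2 adjusted p = 2.59e-10, edgeR adjusted p = 0.00247), with a within-diet r with Plac8 of 0.45. Lypd8l, related to a secreted protein that keeps flagellated bacteria from the mucosa, rose by 1.52 ± 0.24 at 10% RPS (DESeq2 adjusted p = 8.94e-07), yet its within-diet r with Plac8 was -0.06. The median log2 difference of the antibacterial list was 0.58 at 5% RPS and 0.50 at 10% RPS, against -0.0070 and 0.0028 over all genes.

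**Figure D4:**
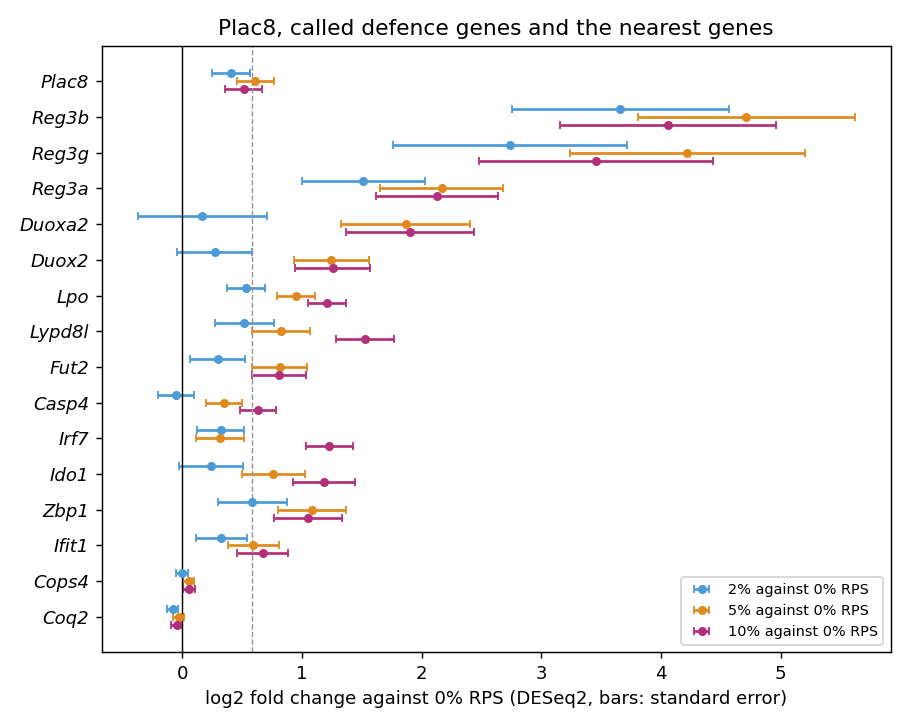
DESeq2 log2 fold change of normalised counts against 0% RPS with its standard error for Plac8, the 13 antibacterial and interferon genes called at 5% or 10% RPS and the 2 nearest genes with counts. The dashed line marks 1.5-fold (0.58), and Plac8 lies at 0.40, 0.61 and 0.51, below Reg3b at 4.71 and above Cops4 at 0.05 for 5% RPS.

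Interferon-induced genes stayed further from Plac8. The list was not limited to genes of type I and III interferons, since it held Ido1, which the paper counts as induced by type II interferon. Of 33 in the list 29 had counts, with a median r of 0.23, and 5 had r of at least 0.5. Zbp1, a sensor of Z-form nucleic acids, was the closest (r = 0.80, 0.64 within diets) and was the only one called at 5% RPS, where it rose by 1.08 ± 0.29 on the log2 scale (DESeq2 adjusted p = 0.0205), or 1 of 29 where 0.438% of all genes were called. At 10% RPS Irf7, Ifit1, Zbp1 and Ido1 were called higher and none lower, or 4 of 29 where 0.9% of all genes were called. Irf7, the regulator that amplifies interferon production, rose by 1.23 ± 0.20 at 10% RPS (DESeq2 adjusted p = 1.21e-06), where Plac8 was no higher than at 5% RPS. Its within-diet r with Plac8 was -0.12. With edgeR, Irf7 and Ido1 were called at 10% RPS, and no interferon gene was called at 5% RPS, where 5 had an unadjusted DESeq2 p under 0.05. None was called at 2% RPS with either tool, where DESeq2 called 0.0239% of all genes. At an unadjusted DESeq2 p under 0.05 there were 2 interferon genes at 2% RPS. For both of these unadjusted counts the share of all genes is not given here. Without 3 libraries with label numbers apart from the other 17 (replicate 5 of 2% RPS and replicates 4 and 5 of 10% RPS), 1 interferon gene was called at 10% RPS, and 5 antibacterial genes. For that fit too, the share of all genes called is not given here.

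Of 15 genes that the literature ties to Plac8, 14 had counts and none was called at any starch level with DESeq2 or edgeR. DESeq2 called 0.0239%, 0.438% and 0.9% of all genes at 2, 5 and 10% RPS. None of 14 is near those shares. At an unadjusted DESeq2 p under 0.05 there were 1, 4 and 7 of the 14 at 2, 5 and 10% RPS, of which 0, 2 and 6 were higher. The share of all genes at that limit is not given here. The median r of the 14 was 0.20. Rab7, which carries late endosomes to the lysosome, was the highest (r = 0.63) and Trp53, the p53 tumour suppressor, the lowest (r = -0.50, -0.06 within diets). Between them were the kinase Akt1 (0.57), the phosphatase Dusp6 (0.48), the transcription factor Cebpb (0.41), the scramblase Plscr1 (0.40) and Myc (-0.39). Plscr1 differed from 0% RPS by 0.20 ± 0.16 at 5% RPS and 0.27 ± 0.16 at 10% RPS on the log2 scale, and Dusp6 by 0.46 ± 0.21 and 0.51 ± 0.21. The family members Plac8l1 and Cnfn were not analysed here.

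Of the cell type lists, those of goblet cells and surface colonocytes had the highest median r with Plac8, and the difference between lists was not tested. Among 13 measured markers of surface colonocytes the median r was 0.48 (0.30 within diets) and 6 had r of at least 0.5, led by Krt20 (0.84, and 0.71 within diets), while the water channel Aqp8 had -0.14. Their summed level was 322700 to 655819 normalised counts at 0% RPS, 592436 to 697342 at 2%, 577673 to 727552 at 5% and 586394 to 838218 at 10% RPS. Car1 alone had a mean of 321199 over the 20 libraries, so it made up a large part of these sums. The 9 goblet cell markers had a median r of 0.55 (0.34 within diets), from Spdef (0.43) to Spink4 (0.63), with sums of 451608 to 794402 at 0% RPS and 644464 to 765003 at 5% RPS. Muc2 alone had a mean of 500302 over the 20 libraries, so the goblet sums were mostly Muc2. The 9 crypt base and cycling genes had a median r of 0.19 (0.36 within diets), but they were split. The cycling genes had r above 0: Ccnb1 (0.19), Mki67 (0.52), Top2a (0.61), Cdk1 (0.61) and, highest, the replication clamp Pcna (0.71). The crypt base genes had r below 0: Ascl2 (-0.12), Smoc2 (-0.42), Rnf43 (-0.46) and, lowest, the Wnt target Axin2 (-0.48). The 7 enteroendocrine and tuft cell genes had a median r of -0.27, and the tuft cell channel Trpm5 was the lowest (r = -0.70). Whether the make-up of the epithelium had a part in the level of Plac8 was not tested.

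Leukocyte markers differed by cell type, and many were not among the genes with counts. None of the 8 neutrophil genes was among those with counts, and of 12 T and NK cell genes 3 were. The 10 measured myeloid markers had a median r of -0.12, with Cd14 (0.63) and Cd68 (-0.44) at the ends and summed levels of 3120 to 7405 normalised counts at 0% RPS and 3341 to 4802 at 5% RPS. Of 8 plasmacytoid dendritic cell genes 4 had counts. The transcription factor Irf8 among them had r = 0.86 and 0.75 within diets, whereas Tcf4, which that cell type needs, had -0.17. The 6 measured B and plasma cell genes had a median r of 0.36, and within diets a median of 0.41, the highest of all lists. The B cell receptor components Cd79a and Cd79b had r = 0.51 and 0.48, and the B cell coactivator Pou2af1 had 0.48 (0.64 within diets), at means of 86.5, 53.6 and 81.4 normalised counts. Jchain and Derl3 had r = 0.25 and 0.22, and Mzb1 went the other way with -0.24, at a mean of 3.04 normalised counts. Only 1 of the 6 had a mean of at least 100. All 7 smooth muscle genes had r below 0, from Cnn1 (-0.31) to Actg2 (-0.15), as did 7 of the 8 stromal and vessel genes, with Pecam1 of the endothelium at -0.61. Of 84 cell type markers none was called at 2% or 5% RPS with either tool, where DESeq2 called 0.0239% and 0.438% of all genes. At an unadjusted DESeq2 p under 0.05 there were 8, 18 and 30 of the 84 at 2, 5 and 10% RPS, of which 3, 11 and 20 were higher. What share of all genes passed that unadjusted limit is not given here. At 10% RPS the adhesion molecule Ceacam1 (0.60 ± 0.13, DESeq2 adjusted p = 0.000944) and the glial filament Gfap (0.61 ± 0.16, DESeq2 adjusted p = 0.00797) were called, or 2 of 84 where 0.9% of all genes were called. With edgeR Gfap was not called at 10% RPS (edgeR adjusted p = 0.0569). Without 0% RPS replicate 2, 7 markers were called at 10% RPS, and the share of all genes called in that fit is not given here.

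The neighbours of Plac8 on chromosome 5 differed less between diets than it did. Plac8 was picked for its difference between diets, so this contrast follows from the choice and shows nothing particular to the locus. Cops4, a subunit of the COP9 signalosome, is the nearest gene with counts on the side of lower coordinates, 5920 bases away. It had r = 0.45 with Plac8 and a log2 difference of 0.05 ± 0.05 at both 5% and 10% RPS. Coq2, an enzyme of ubiquinone synthesis 82448 bases away on the other side, had r = -0.16 and differences of -0.03 ± 0.05 and -0.05 ± 0.05. Within 500 kb 13 genes were in the table, 11 of them with a mean of at least 100. Their r ran from -0.28 for Sec31a to 0.66 for Mrps18c, and none of the 11 that were tested was called on any starch diet with either tool. DESeq2 called 0.0239%, 0.438% and 0.9% of all genes at 2, 5 and 10% RPS, so none of 11 is near those shares. At an unadjusted DESeq2 p under 0.05 there were 0, 1 and 1 neighbours at 2, 5 and 10% RPS, and the share of all genes at that limit is not given here. At 5% RPS their log2 differences lay between -0.26 and 0.19, below the 0.61 of Plac8.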

How the data were processed

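Stranded mRNA libraries of PC RNA from 20 mice were sequenced as single 50-base reads. The authors removed low-quality bases and reads with more than 2 ambiguous bases, mapped reads to GRCm39 in CLC Genomics Workbench (version 20.01) and deposited whole-number read counts per gene. Annotation, strand use, multi-mapping and the gene filter are not given in the sources used here. Diets came from the treatment labels, and libraries were numbered in order within a diet.

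Gene symbols, transcripts and sequences came from GENCODE M39 on GRCm39, which held 12682 of the 12701 genes. DESeq2, the tool of the study (version 1.42.0, R version 4.3.3), was fitted to the counts of all 20 libraries with diet as the term, and adjusted p values of genes are Benjamini-Hochberg over the genes each tool kept. edgeR (version 4.0.16, quasi-likelihood, TMM) was the alternative. Correlations used log2(normalised count + 1) of genes with a mean of at least 100. Permutation p values are two-sided over 100000 permutations of all 20 libraries. The permutations were not kept within diets, so these p values treat the diets as interchangeable. Total counts were 20581013 to 35083751 per library, and counting errors cover counting only.

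Named were Plac8, the 10 highest and 5 lowest genes by r, the 5 highest further genes within diets, called list members, the extremes of each list and the nearest gene with counts on each side. Some genes are not reported here. Genes named outside this rule were chosen after their values were seen. Plac8 and the lists were chosen with earlier results of these data known. Other settings were TMM size factors, a filter of at least 10 counts in 5 libraries, only the diets compared, a smooth muscle covariate, no fold limit, no independent filtering, Spearman correlation, within-diet correlation, a mean of at least 10, and libraries left out.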

Additional observations from a re-analysis of the deposited data

Results flagged for a closer look

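In a diet of 5 libraries, a highest or lowest library was listed where its gap to the nearest other exceeded 0.71 of the whole range. Over 60 genes and 240 groups, 21 values passed this limit, and chance alone flags about 1 in 20 groups. Plac8 itself had none.

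Among the antibacterial genes, replicate 5 at 2% RPS was far above the rest of its diet in Reg3b (127115 normalised counts against 1723 to 25600), Reg3g (14926 against 279 to 3871), Reg3a (117 against 16.3 to 40.8) and Duox2 (4581 against 2292 to 2804). It was also the highest of its diet in Plac8, at 24247, but within the spread. Replicate 3 at 0% RPS was high in Reg3b (8324 against 553 to 2261), Reg3g (2362 against 128 to 316) and Fut2 (6166 against 3977 to 4349), and it was the highest of that diet in Plac8 as well. Reg3a in replicate 2 at 0% RPS was low, at 1.04 against 17.6 to 22.8.

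That same library, 0% RPS replicate 2, was high in Cnn1 (29960 against 8881 to 13992), Aqp8 (6463 against 98.0 to 917) and Cd68 (169 against 91.8 to 113). Replicate 1 at 10% RPS was high in Aqp8 (3003 against 132 to 825), Ifi27l2a (837 against 255 to 394) and Zfp608 (448 against at most 331), and low in Klrd1 (44.9 against 90.1 to 94.7) and Kdr (438 against 551 to 587). It was the lowest library of its diet in Plac8.

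Replicate 5 at 10% RPS was high in Fam3b (5021 against 4050 to 4325) and Spdef (6419 against 4759 to 5100), replicate 2 at 5% RPS in Clca4b (1571 against 96.2 to 523) and Aqp8 (664 against 136 to 258), and replicate 3 at 2% RPS in Ifi27l2a (565 against 202 to 303).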

How the results depend on the processing

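The log2 difference of Plac8 from 0% RPS stayed above 0 under every setting run: 0.32 to 0.50 at 2% RPS, 0.54 to 0.71 at 5% RPS and 0.45 to 0.58 at 10% RPS with 1 library left out, and 0.32 to 0.40, 0.59 to 0.61 and 0.44 to 0.51 under the others. The counts of called genes were less stable. Apart from edgeR, the share of all genes called under each other setting is not given here. Antibacterial genes numbered 4 to 8 at 5% RPS (main value 8) and 6 to 9 at 10% RPS (main value 9) with 1 library left out. Interferon genes numbered 0 to 3 at 5% RPS (main value 1) and 2 to 6 at 10% RPS (main value 4), and cell type markers 0 to 1 at 5% RPS (main value 0) and 0 to 7 at 10% RPS (main value 2). With edgeR, antibacterial genes numbered 1 at 5% RPS and 4 at 10% RPS, interferon genes 0 and 2, and cell type markers 0 and 1. Without the 3 libraries with label numbers apart from the rest, 5 antibacterial genes, 1 interferon gene and 1 cell type marker were called at 10% RPS, and 1 marker at 5% RPS. With only the diets compared, 2 interferon genes were called at 5% RPS and 1 marker at 10% RPS, with the smooth muscle covariate 1 marker at 10% RPS, and without a fold limit 2 interferon genes and 2 markers at 5% RPS and 8 markers at 10% RPS. Genes with r of at least 0.8 numbered 117, 76 to 162 with 1 library left out, 49 within diets, and, in a setting chosen after seeing the data, 70 without the 2 libraries farthest from the median of Plac8. The cause of these shifts was not tested. No paired analysis was possible because no replicate numbers that link mice of different diets are in the labels. Counting error of Plac8 itself was at most 0.918%. Genes with few counts, such as Reg3a, carry a larger one.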
